A study of Mus musculus with 9 samples.

Results

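Primary mouse lung endothelial cells (MLEC) were compared between 2 control genotypes that both keep JNK1 and JNK2, using 3 libraries of each and therefore 6 of the 9 samples in the series. ECtrl cells were Cdh5-Cre+ with the unmodified genes of JNK1 and JNK2 (Jnk1+/+ Jnk2+/+). EfCtrl cells were Cdh5-Cre- cells with LoxP sites in both alleles of both genes (Jnk1LoxP/LoxP Jnk2LoxP/LoxP). The paper calls the EfCtrl mice Cre- littermates and does not say that ECtrl mice shared their litters. Both groups lacked JNK3 (Jnk3-/-), and all mice were C57BL/6J adults aged 10 to 12 weeks. The third group, E3KO, carried the same LoxP alleles together with Cdh5-Cre and the same loss of JNK3. Its 3 libraries enter no test here except an alternative fit with all 9 libraries, and their values are given beside some genes as a description. The question was what differs between the 2 cultures that serve as controls for JNK loss. Their genotypes differ in 2 respects at once, Cre and the LoxP alleles, so an effect of either cannot be told apart from an effect of the other. A difference of litter or breeding line cannot be told apart from these either.

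JNK proteins are stress-activated protein kinases that phosphorylate transcription factors of the AP-1 family, and the genes Mapk8, Mapk9 and Mapk10 encode JNK1, JNK2 and JNK3. Cdh5 encodes VE-cadherin, the adhesion protein of endothelial junctions, and its promoter drives the Cre recombinase in this model. Recombination is thereby directed to endothelium, and Cre activity in the other cells of these cultures was not tested. A floxed allele is a gene altered by targeting so that Cre can later remove part of it, and such an allele is inherited together with the stretch of chromosome around it. The study states many generations of backcrossing to C57BL/6J. The strain of the cells in which the alleles were first made is not given in the sources used here.

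Each library came from a separate isolation from the lungs of several mice, by selection on magnetic beads for ICAM2 and culture, so the cells are a cultured and selected population. The values are FPKM, a level scaled by transcript length and by the size of the library. Of 37104 loci, 33353 had a symbol that named only that locus and had FPKM values, and 10306 of these reached a mean of 2 FPKM in either control group and were tested. FPKM does not record how many fragments stood behind a value, so intervals for counting error could not be made. A rough relative depth, from the commonest ratio between low values, was 1.46 and 1.23 times that of ECtrl replicate 2 for ECtrl replicates 1 and 3, and 1.46 to 1.57 times for the 3 EfCtrl libraries. The 10 highest loci took between 40.9% and 56.8% of the summed FPKM of the control libraries. The library labelled E3KO replicate 1 stood apart, with 96.4% in its 10 highest loci and with more Mapk8 (20.7 FPKM) than any control library. It is named separately wherever E3KO values are given.

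No gene passed the test between ECtrl and EfCtrl. With limma on log2(FPKM + 1), 0 of 10306 genes (0%) had a Benjamini-Hochberg adjusted p under 0.05, and the smallest adjusted p was 0.0587. That value belonged to Gm11027, a predicted gene named here after its values were seen, which was listed at 0 in every ECtrl library and at 17.7, 13.3 and 7.31 FPKM in EfCtrl. Gm11027 reached the filter only through EfCtrl, so it had to be higher there. At an unadjusted p under 0.05, 207 genes (2.01%) were higher in EfCtrl and 167 genes (1.62%) were lower. The median difference over all genes, EfCtrl minus ECtrl, was -0.0071 on the log2 scale, and the median absolute difference was 0.093. A gene is called apart below where all 3 EfCtrl libraries lay above, or all 3 below, the 3 ECtrl libraries and the log2 difference was 0.5 or more. By that rule 76 genes (0.737%) were apart and higher in EfCtrl, and 34 genes (0.33%) were apart and lower. Of all genes tested, 257 reached the filter only through EfCtrl and 201 only through ECtrl, and the filter fixed the direction of those genes. For a single gene, 3 libraries against 3 cannot give an exact two-sided permutation p below 0.1. When 1 library was left out, the same limma test called between 1 and 6 genes higher, with 6 without EfCtrl replicate 1 and 5 without EfCtrl replicate 3, and 0 or 1 lower, so the count of 0 depends on which libraries enter.

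Libraries of different genotype lay closer to each other than ECtrl libraries lay among themselves, but mostly farther than EfCtrl libraries did. Over the genes tested, the median absolute log2 difference between an ECtrl and an EfCtrl library was 0.18, with a range from 0.139 to 0.201 over 9 pairs. The 3 pairs of ECtrl libraries were farther apart, at 0.215 to 0.237. The 3 pairs of EfCtrl libraries were closer, at 0.123 to 0.151. ECtrl replicates 2 and 3 were also the shallowest by the rough estimate of depth, and the part of depth in these distances was not tested.

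**Figure D1:**
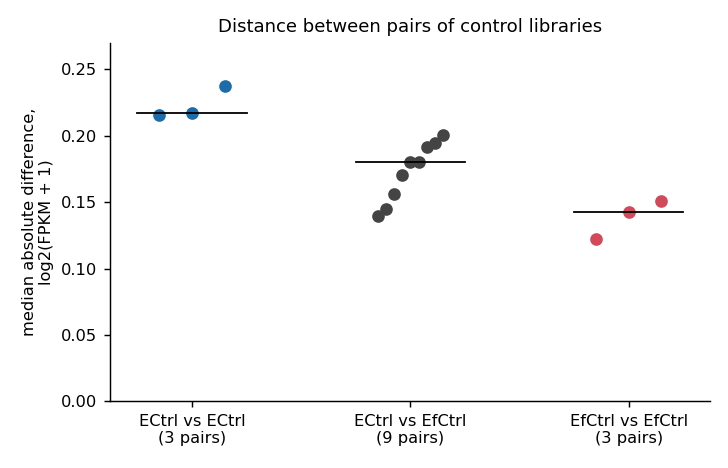
Each point is a pair of control libraries, placed by the median absolute difference between them in log2(FPKM + 1) over 10306 genes, and bars are medians of the pairs. The 9 pairs across genotypes (0.139 to 0.201) lie below the 3 ECtrl pairs (0.215 to 0.237) and overlap the range of the EfCtrl pairs (0.123 to 0.151).

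**Figure D2:**
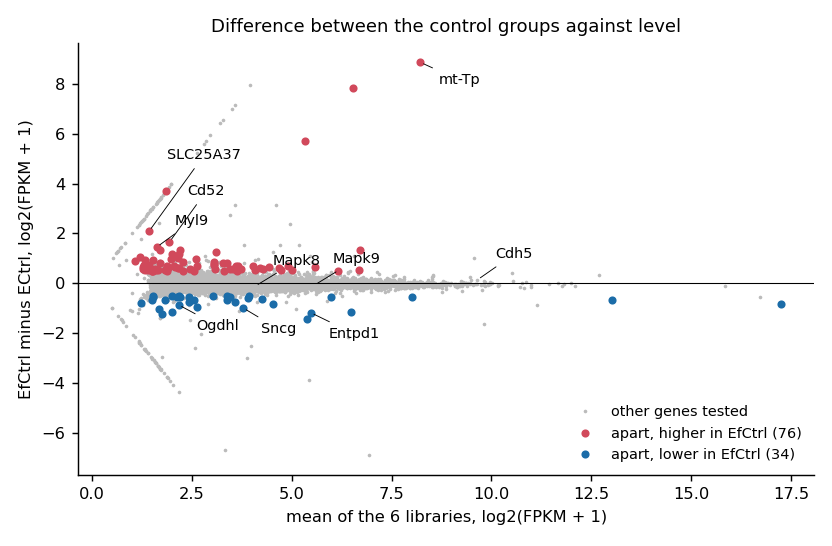
Each point is a gene, with the mean log2(FPKM + 1) of the 6 libraries on the horizontal axis and the difference EfCtrl minus ECtrl on the vertical axis. Red points are the 76 genes apart and higher in EfCtrl, blue points the 34 apart and lower. The oblique lines at the left are genes with a value in only 1 or a few libraries.

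The JNK genes themselves did not separate the groups. Mapk8 (chromosome 14, 33377898 to 33447158, mm10) had 17.01, 15 and 17.9 FPKM in ECtrl and 16.7, 14.0 and 15.1 FPKM in EfCtrl. The log2 difference was -0.11 ± 0.11 (SE). Mapk9 (chromosome 11, 49846751 to 49886421) had 44.1, 50.9 and 47.9 FPKM in ECtrl and 45.5, 42.7 and 47.9 FPKM in EfCtrl, a log2 difference of -0.068 ± 0.10 (SE). The ranges of the groups overlapped for both genes. Mapk10 was at or below 0.270 FPKM in every control library. A list of 28 genes of the JNK pathway held 16 tested genes, of which 0 had an unadjusted limma p under 0.05, and the list's median log2 difference was -0.025. Map2k4, which encodes the JNK-activating kinase MKK4, had 36.9 ± 2.07 FPKM (SD, n = 3) in ECtrl and 36.1 ± 1.604 FPKM in EfCtrl. The 11 tested genes of 23 in an AP-1 and immediate early list had a median log2 difference of 0.022, and 0 of them had an unadjusted p under 0.05.

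Both cultures carried the markers of endothelium, with overlapping ranges for Cdh5, Pecam1, Kdr and Icam2. Cdh5 had 613, 788 and 916 FPKM in ECtrl and 825, 860.5 and 838 FPKM in EfCtrl, so the EfCtrl values fell inside the ECtrl range. Pecam1, the platelet endothelial adhesion molecule, had 705 ± 61.7 FPKM (SD, n = 3) in ECtrl and 703 ± 15.7 FPKM in EfCtrl. Kdr, the receptor VEGFR2, had 134 ± 11.9 and 133 ± 7.27 FPKM, and Icam2, the antigen used for selection, had 179 ± 27.8 and 195 ± 15.9 FPKM. Of 22 pan-endothelial genes 19 were tested, 10 of them higher and 9 lower in EfCtrl, with a median log2 difference of 0.049. The single member with an unadjusted p under 0.05 was Mmrn2, whose locus lies near Mapk8 and is described with that region. Among genes of endothelial subtypes, 13 of 15 tested lung capillary genes were lower in EfCtrl, with a median log2 difference of -0.088. Lpl, the lipoprotein lipase, went the other way and was apart, with 2.21, 7.94 and 7.92 FPKM in ECtrl and 8.33, 14.3 and 8.26 FPKM in EfCtrl. Of the 16 lymphatic genes 12 were lower (median -0.060), as were 11 of 18 arterial genes (-0.043), 15 of 22 tip cell genes (-0.069) and 2 of 8 venous genes (0.082), beside 5385 of all 10306 genes. In these 5 lists 3 entries had an unadjusted p under 0.05, beside 3.63% of all genes tested. The 4 tested sex-linked genes were all Y-linked and had log2 differences between -0.091 and 0.074, while 3 other Y-linked genes were listed at 0 in every library and Xist was at or below 0.217 FPKM in each.

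Differences were more frequent among the neighbours of Mapk8 than among all genes tested. Of 20 other tested genes within 2 Mb of Mapk8, 6 (30%) had an unadjusted limma p under 0.05, beside 3.63% of all genes tested. The groups did not overlap for 7 of the 20, beside 817 of all 10306 genes. Within 10 Mb the count was 10 of 64 genes (15.6%), and on the rest of the chromosome it was 10 of 293 genes (3.41%). Of the 64, 3 reached the filter only through EfCtrl and 3 only through ECtrl, so the filter fixed the direction of those genes. A filter on the mean of all 6 libraries, chosen after seeing the data, left 63 genes. Of these, 10 had an unadjusted limma p under 0.05. The 6 genes within 2 Mb did not move one way, as 3 were higher in EfCtrl and 3 were lower, and the median log2 difference of the 20 genes was 0.020. None of these genes passed the adjusted test. The count within 10 Mb was 6 without ECtrl replicate 2 and also 6 without EfCtrl replicate 3, and between 8 and 12 without any other library. The background moved as well. Of all 10306 genes, 527 had an unadjusted limma p under 0.05 without ECtrl replicate 2 and 295 without EfCtrl replicate 3. With all 6 libraries they numbered 374.

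The lower genes were led by Sncg, which encodes gamma-synuclein and lies 0.923 Mb from Mapk8 (chromosome 14, 34370274 to 34374789). Sncg had 16.3, 18.3 and 20.8 FPKM in ECtrl and 10.7, 8.62 and 7.37 FPKM in EfCtrl. Every EfCtrl library was below every ECtrl library, with means of 18.5 ± 2.22 and 8.89 ± 1.66 FPKM (SD, n = 3 each) and a log2 difference of -0.99 ± 0.16 (SE, limma adjusted p = 0.751). In E3KO, Sncg was at 11.3 and 11 FPKM, and at 3.04 FPKM in the library labelled E3KO replicate 1.

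Ogdhl encodes a mitochondrial enzyme related to oxoglutarate dehydrogenase and lies on the other side of Mapk8 at 1.03 Mb (chromosome 14, 32322019 to 32347820). It had 4.74, 4.41 and 6.08 FPKM in ECtrl and 2.75, 2.07 and 2.22 FPKM in EfCtrl. The groups did not overlap, and the log2 difference was -0.86 ± 0.14 (SE, limma adjusted p = 0.751). The E3KO values were 2.09 and 2.66 FPKM, and 0.633 FPKM in the library labelled E3KO replicate 1. Leaving out any 1 library kept the log2 difference of Ogdhl between -0.94 and -0.74 and that of Sncg between -1.11 and -0.87. Galntl2, listed as the glycosyltransferase gene Galnt15 in the annotation, was the remaining lower gene within 2 Mb, with 3.06, 2.86 and 1.92 FPKM in ECtrl and 1.46, 1.41 and 1.91 FPKM in EfCtrl. Its groups are separated by less than the spread within either, and the log2 difference was -0.47 ± 0.16 (SE). Galntl2 reached the filter only through ECtrl.

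The 3 higher genes lay on the same side as Sncg, all within 1 Mb of Mapk8. Glud1, the mitochondrial glutamate dehydrogenase, had 669, 626 and 647 FPKM in ECtrl and 771, 734 and 825 FPKM in EfCtrl. The groups did not overlap, at a ratio of means of 1.20 and a log2 difference of 0.26 ± 0.095 (SE). Mmrn2 encodes multimerin 2, a matrix protein of endothelium, and had 92.0, 124 and 148 FPKM in ECtrl and 167, 177 and 149.6 FPKM in EfCtrl. The lowest EfCtrl value of Mmrn2 was just above the highest ECtrl value, and the log2 difference was 0.46 ± 0.18 (SE). Fam35a, in the annotation Shld2 for a subunit of the shieldin complex that protects broken DNA ends, had 2.47, 2.54 and 3.05 FPKM in ECtrl and 3.45, 3.44 and 4.11 FPKM in EfCtrl. Without 1 of the 6 libraries, the largest unadjusted limma p was 0.106 for Glud1, 0.125 for Mmrn2 and 0.0786 for Fam35a. In E3KO, Glud1 had 721, 856 and 838 FPKM, Mmrn2 had 166, 220.5 and 249 FPKM, and Fam35a had 5.24, 4.71 and 4.07 FPKM, each time with the library labelled E3KO replicate 1 first.

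A little over 2 Mb from Mapk8, at 2.249 Mb and 2.21 Mb, 2 neighbouring loci were apart and higher in EfCtrl. The locus 2010107H07Rik (chromosome 14, 31019138 to 31128930) had 2.31, 1.72 and 1.07 FPKM in ECtrl and 4.66, 4.98 and 5.46 FPKM in EfCtrl. Its log2 difference of 1.18 ± 0.18 (SE) was the largest within 10 Mb among loci with values in more than 1 library. The interval listed for 2010107H07Rik also covers other annotated genes, Gnl3 and Pbrm1 among them. Symbols listed with 1 shared interval can have different values, such as Capn7 at 21.0 and Sh3bp5 at 144 FPKM in ECtrl (means). How reads were divided among the genes of the 2010107H07Rik interval was not examined. Nt5dc2 had 1.51, 2.10 and 2.27 FPKM in ECtrl and 3.98, 3.61 and 3.16 FPKM in EfCtrl, a log2 difference of 0.64 ± 0.14 (SE). It overlaps Stab1 on the opposite strand, and the sources used here do not say if strand was used in the estimates. Both loci, 2010107H07Rik and Nt5dc2, reached the filter only through EfCtrl, so they had to be higher there. The E3KO values were 6.47, 5.74 and 3.85 FPKM for 2010107H07Rik and 1.21, 2.66 and 2.76 FPKM for Nt5dc2, again with the library labelled E3KO replicate 1 first. The remaining genes with an unadjusted p under 0.05 within 10 Mb, named after their values were seen, were Il17rd, an inhibitor of FGF signaling, at 2.69 ± 0.366 FPKM (SD, n = 3) in ECtrl and 1.65 ± 0.230 FPKM in EfCtrl, and the transcriptional coregulator Zmiz1 at 9.78 ± 0.238 and 12.2 ± 0.697 FPKM. Il17rd reached the filter only through ECtrl.

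**Figure D3:**
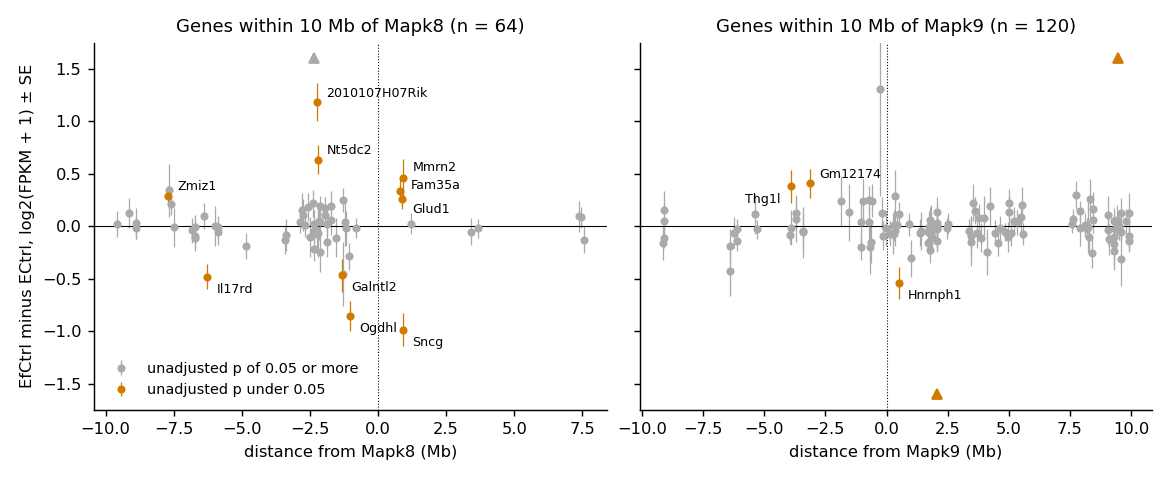
Points are the genes tested within 10 Mb of Mapk8 (64 genes) and of Mapk9 (120 genes), by distance in Mb and by the difference EfCtrl minus ECtrl in log2(FPKM + 1) with its SE. Orange points have an unadjusted limma p under 0.05, and triangles at the edge mark 1 and 2 loci beyond the axis. Orange points gather within about 2.5 Mb of Mapk8, in both directions, and are scattered around Mapk9.

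**Figure D4:**
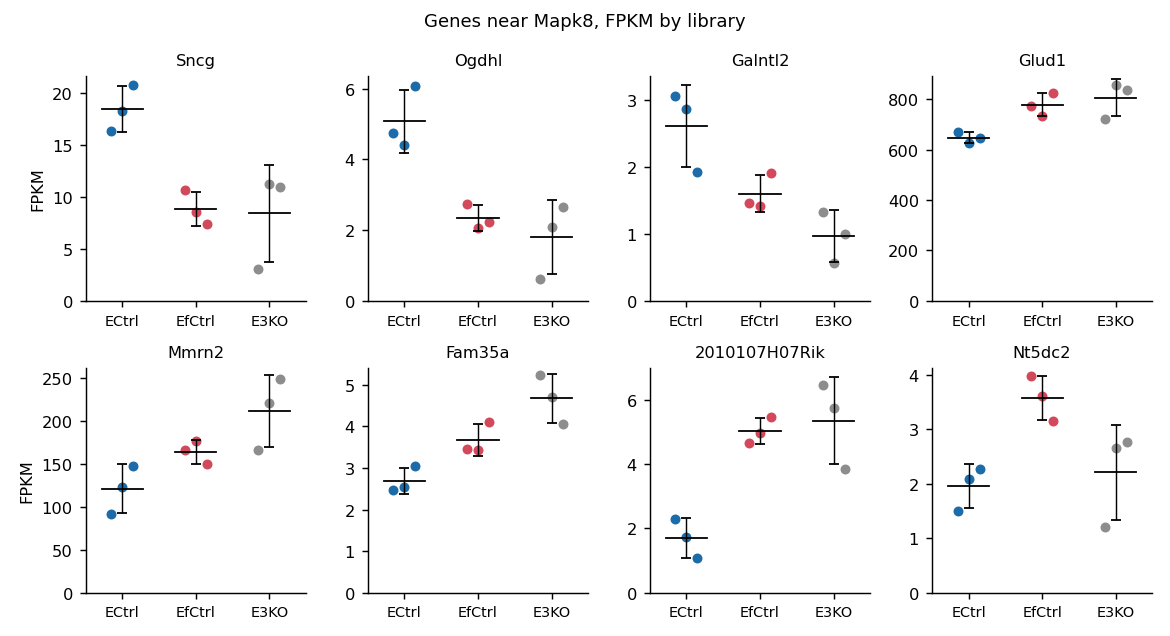
FPKM of 8 genes near Mapk8 in each library, with the group mean and SD as bars and the library labelled E3KO replicate 1 as the leftmost E3KO point. In all 8 panels the 3 EfCtrl points lie on one side of the 3 ECtrl points, by the least margin in Galntl2 and Mmrn2.

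The neighbourhood of Mapk9, whose alleles carry LoxP sites as well, looked like the rest of the genome by the same counts. Of 36 genes within 2 Mb, 1 (2.78%) had an unadjusted limma p under 0.05, and of 120 genes within 10 Mb there were 5 (4.17%), beside 4.35% of 736 genes on the rest of the chromosome. The count of 5 was between 2 and 9 when a library was left out. It was 2 without EfCtrl replicate 2, 3 without ECtrl replicate 1, 8 without ECtrl replicate 3 and 9 without ECtrl replicate 2. The same omissions, in that order, gave 258, 506, 605 and 527 of all 10306 genes, beside 374 with all 6 libraries. The gene within 2 Mb was Hnrnph1, a regulator of splicing, with 292, 334 and 312 FPKM in ECtrl and 180.4, 260.1 and 210.4 FPKM in EfCtrl. The groups did not overlap and the log2 difference was -0.54 ± 0.15 (SE). In E3KO, Hnrnph1 had 113 and 124 FPKM, and 755 FPKM in the library labelled E3KO replicate 1. Flt4, the lymphatic receptor VEGFR3, also lies within 2 Mb of Mapk9 and had 157 ± 26.04 FPKM (SD, n = 3) in ECtrl and 171 ± 15.6 FPKM in EfCtrl, which overlapped. Gfpt2, which lies directly beside Mapk9, had 14.4 ± 3.21 and 14.0 ± 0.812 FPKM.

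Farther along chromosome 14, outside the 10 Mb window, the named locus with the smallest unadjusted p was listed under the symbol SLC25A37 (69390854 to 69503362). It had 0.0521, 0.149 and 0.832 FPKM in ECtrl and 4.06, 4.38 and 5.26 FPKM in EfCtrl. The groups lay far apart, with a log2 difference of 2.09 ± 0.22 (SE, limma adjusted p = 0.249). Without ECtrl replicate 3 the adjusted limma p was 0.0284. The annotation shows other genes and pseudogenes in this interval, Gm16867 and Gm21451 among them. The mitochondrial iron importer gene Slc25a37 is a separate locus, at 11.9 ± 1.01 FPKM (SD, n = 3) in ECtrl and 11.2 ± 0.854 FPKM in EfCtrl. A neighbouring locus, listed as ENTPD4,Entpd4 and annotated as Entpd4b, had 2.16, 1.98 and 1.73 FPKM in ECtrl and 3.53, 3.66 and 3.66 FPKM in EfCtrl. Both loci reached the filter only through EfCtrl, so they had to be higher there. Both loci belong to near-identical copies of neighbouring genes, so the assignment of reads among the copies is uncertain. In E3KO, the locus SLC25A37 had 2.29 and 4.98 FPKM, and 0.0889 FPKM in the library labelled E3KO replicate 1.

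Markers of leukocytes were the gene group with the largest median difference among lists with more than 2 tested genes, and they were higher in EfCtrl. In 20 tested genes of a list of 39, the median log2 difference was 0.84, beside -0.0071 over all genes, and 19 of the 20 were higher in EfCtrl. An unadjusted limma p under 0.05 was reached by 6 of the 20, all higher, and 5 were apart and higher, beside 0.737% of all genes. None passed the adjusted test. Of the 20 genes, 7 reached the filter only through EfCtrl, Cd52 and Itgax among them, and such genes had to be higher in EfCtrl, so these counts and the median are no independent support for the direction. With a filter on the mean of all 6 libraries, chosen after seeing the data, 17 genes were left and 16 of them were higher, with a median of 0.77 and 4 apart. With no filter the median was 0.54. The median was 0.44 without ECtrl replicate 1, the library with the lowest sum over the list, and between 0.64 and 1.01 without any other library. In such bulk samples a difference in the number of cells of a type and a difference in RNA per cell cannot be told apart.

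Cd68, a lysosomal protein of macrophages, had 12.8, 14.7 and 17.8 FPKM in ECtrl and 24.6, 26.8 and 18.4 FPKM in EfCtrl. The groups were separated by a narrow margin, and the log2 difference was 0.59 ± 0.18 (SE). Lyz2, the lysozyme of myeloid cells, had 28.03, 111 and 80.5 FPKM in ECtrl and 123, 191 and 107 FPKM in EfCtrl. Its groups overlapped, since ECtrl replicate 2 was above EfCtrl replicate 3.

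The integrin chains Itgax (CD11c) and Itgb2 (CD18) and the adaptor Tyrobp were each apart. Itgax had 0.337, 1.04 and 1.21 FPKM in ECtrl and 2.58, 2.98 and 1.98 FPKM in EfCtrl. Itgb2 had 0.762, 3.79 and 2.59 FPKM in ECtrl and 5.31, 6.53 and 4.14 FPKM in EfCtrl. Tyrobp had 2.19, 5.97 and 6.99 FPKM in ECtrl and 13.7, 19.1 and 7.06 FPKM in EfCtrl, so that EfCtrl replicate 3 was just above ECtrl replicate 3. Cd52, a surface glycoprotein of lymphocytes and macrophages, had the largest log2 difference of the 5, at 1.66 ± 0.27 (SE). It had 0.665, 2.27 and 0.841 FPKM in ECtrl and 5.64, 7.10 and 4.86 FPKM in EfCtrl. The monocyte receptor Cd14 was the exception, with 24.2 ± 5.43 FPKM (SD, n = 3) in ECtrl and 23.4 ± 1.22 FPKM in EfCtrl, and Chi3l3 had 36.7 FPKM in EfCtrl replicate 1 and at most 0.501 FPKM in the other 5 control libraries.

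The levels were low beside those of endothelial markers. The summed FPKM of the 35 list genes with a single locus was 125, 276 and 244 in ECtrl and 367, 446 and 275 in EfCtrl, so the groups overlapped by 1 library each. In E3KO the sum was 481 and 571 FPKM, and 404 FPKM in the library labelled E3KO replicate 1. The defining markers Ptprc (CD45), Csf1r and Emr1 (F4/80) were below the filter, at no more than 1.23, 2.26 and 1.42 FPKM in any control library. Cd3e and Ms4a1, which mark T and B cells, were listed at 0 in every library. The part that leukocyte RNA has in the differences of other genes was not tested.

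**Figure D5:**
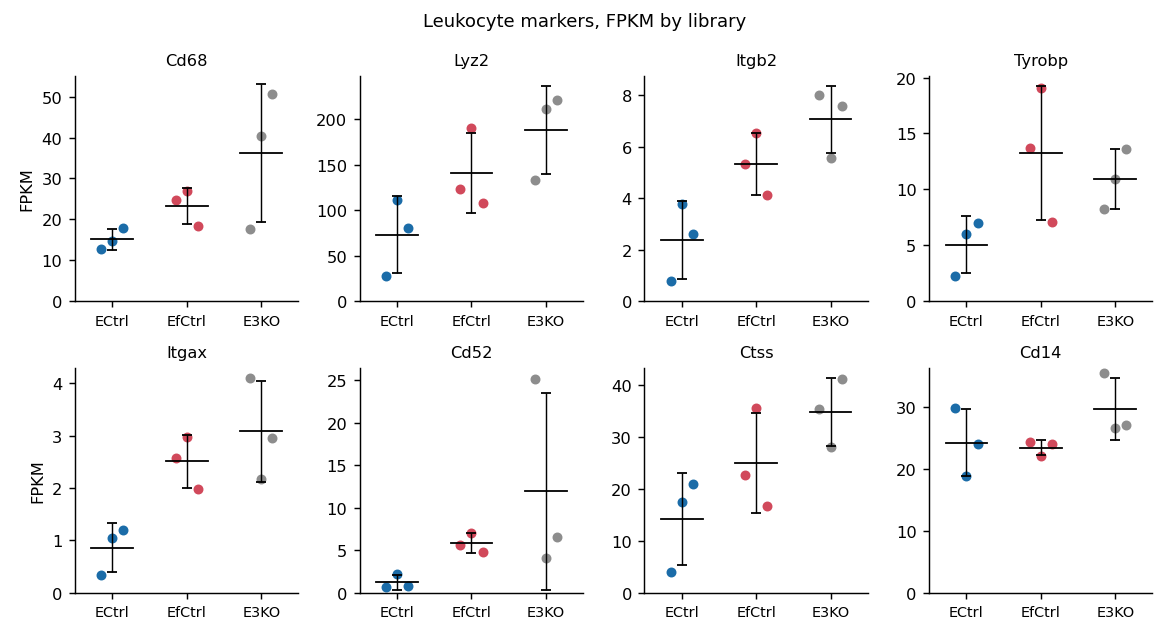
FPKM of 8 leukocyte genes in each library, with the group mean and SD as bars and the library labelled E3KO replicate 1 as the leftmost E3KO point. Cd68, Itgb2, Tyrobp, Itgax and Cd52 separate ECtrl from EfCtrl, whereas Lyz2, Ctss and Cd14 overlap. ECtrl replicate 1, the leftmost ECtrl point, is the lowest library in 7 of the 8 panels.

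Markers of other cell types were also present at low levels, with wide spread between libraries. Myl9, a myosin light chain of smooth muscle, was apart, with 0.413, 0.740 and 1.61 FPKM in ECtrl and 4.40, 6.17 and 2.46 FPKM in EfCtrl. Acta2, the smooth muscle actin, had 4.31, 19.4 and 15.6 FPKM in ECtrl and 11.6, 28.1 and 35.1 FPKM in EfCtrl, and Col1a1, a collagen of fibroblasts, had 0.591, 2.09 and 2.11 FPKM and 0.868, 5.57 and 6.67 FPKM. Both overlapped. Myl9 and Col1a1 reached the filter only through EfCtrl. The median log2 difference was 0.35 over 7 tested genes of 19 in the smooth muscle and pericyte list and 0.30 over 10 tested genes of 29 in the fibroblast list. Summed FPKM ranged from 66.3 to 99.7 in ECtrl and from 86.8 to 117 in EfCtrl for the first list, and from 1528 to 2109 and from 1986 to 2396 for the second, in which Fn1 is the most abundant gene. The defining markers Myh11, Cnn1, Pdgfrb and Pdgfra did not exceed 1.11 FPKM in any control library. Upk1b was the single tested gene of 8 mesothelial markers, at a log2 difference of 0.61 ± 0.46 (SE), and it reached the filter only through EfCtrl. Of 23 epithelial markers 2 were tested, with a median of 0.049, and of 10 erythroid markers 0 were tested, since Hba-a1 was listed at 0 in every library. The part of these cells in the differences of other genes was not tested.

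Among genes outside these groups, those lower in EfCtrl were led by Entpd1, the ectonucleotidase CD39 that breaks down extracellular ATP. Entpd1 had 52.97, 90.0 and 59.6 FPKM in ECtrl and 29.3, 27.5 and 29.1 FPKM in EfCtrl, with no overlap and a log2 difference of -1.17 ± 0.20 (SE, limma adjusted p = 0.773). The FPKM that the authors give for the group as a whole was 32.6 in ECtrl and 28.6 in EfCtrl, so the difference seen in the values by library was much smaller in those by group. In E3KO, Entpd1 had 75.3 and 122 FPKM, and 98.6 FPKM in the library labelled E3KO replicate 1. Over all genes tested, the group value was within 10% of the mean of the libraries for 71.0% of genes in ECtrl and 88.5% in EfCtrl. Agbl3, which encodes a cytosolic carboxypeptidase, had 3.65 ± 1.11 FPKM (SD, n = 3) in ECtrl and 1.24 ± 0.254 FPKM in EfCtrl. Agbl3 reached the filter only through ECtrl, so it had to be lower in EfCtrl. Wdfy1 had 14.6 ± 1.604 and 8.33 ± 1.63 FPKM, the cyclin gene Ccnc had 17.1 ± 1.89 and 11.7 ± 1.07 FPKM, and Nup85, a component of the nuclear pore, had 23.4 ± 5.09 and 14.5 ± 1.94 FPKM. Each was apart.

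On the higher side, 2 genes of the matrix and its turnover were apart. Hspg2, the basement membrane proteoglycan perlecan, had 4.29, 6.56 and 8.91 FPKM in ECtrl and 12.9, 10.7 and 12.0 FPKM in EfCtrl. Mmp9, a gelatinase that leukocytes also make, had 0.898, 1.25 and 1.15 FPKM in ECtrl and 2.33, 2.80 and 2.23 FPKM in EfCtrl. Their log2 differences were 0.81 ± 0.23 and 0.72 ± 0.12 (SE). Mmp9 reached the filter only through EfCtrl, so it had to be higher there. The 38 tested genes of the matrix and basement membrane list had a median of 0.092. Hpn, a membrane-bound serine protease, had 2.255 ± 0.0859 FPKM (SD, n = 3) in ECtrl and 4.27 ± 0.900 FPKM in EfCtrl, and Rnpepl1, an aminopeptidase-like gene, had 9.82 ± 0.477 and 15.2 ± 2.14 FPKM. The mitochondrial transfer RNA mt-Tp was listed at 0 in ECtrl replicates 1 and 2, at 2642 FPKM in ECtrl replicate 3, and at 7051, 7582 and 4927 FPKM in EfCtrl. FPKM of so short a locus is unstable, and a listed 0 can be a failed estimate.

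Ribosomal protein genes did not differ as a list, but single members and loci of their pseudogenes were apart. The summed FPKM of the list was 15682, 13772 and 14968 in ECtrl and 15578, 14472 and 14017 in EfCtrl, which overlapped. The median log2 difference over 71 tested genes was 0.068, less than its spread of 0.12 (SD) between libraries, and 45 genes were higher and 26 lower in EfCtrl. An unadjusted limma p under 0.05 was reached by 10 higher and 2 lower members, together 16.9% beside 3.63% of all genes tested, and 5 members were apart and higher, beside 0.737% of all genes. Rps16 had 42.6, 37.0 and 32.6 FPKM in ECtrl and 64.9, 57.0 and 57.0 FPKM in EfCtrl, and Rpl11 had 22.3, 21.4 and 23.9 FPKM and 40.5, 41.6 and 29.3 FPKM. Rps23, Rpl18 and Rpl39 were the other genes apart. A class noticed after the values were seen, the symbols of ribosomal protein pseudogenes, had 24 tested loci, of which 23 were higher in EfCtrl and 8 were apart and higher, with a median of 0.44. Of the 24, 7 reached the filter only through EfCtrl and had to be higher there, so these counts are no independent support for the direction. A filter on the mean of all 6 libraries, chosen after seeing the data, left 22 loci. Of these, 21 were higher in EfCtrl and 6 were apart, with a median of 0.41. Rps24-ps3 had 2.68 ± 0.291 FPKM (SD, n = 3) in ECtrl and 4.66 ± 0.945 FPKM in EfCtrl, and the library labelled E3KO replicate 1 had 33.9 FPKM beside 2.81 and 3.55 FPKM in the other E3KO libraries. Pseudogenes and their parent genes can share reads, so the values of these loci and of ribosomal protein genes with such copies are uncertain. It was not examined which of these loci are copies of the 5 genes apart.

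Most of the remaining lists had medians close to that of all genes, and their counts of genes with an unadjusted limma p under 0.05 are to be read beside 3.63% of all genes tested. DNA replication genes had a median of -0.046 over 38 tested members, and the 4 with an unadjusted p under 0.05, Rfc4, Mcm7, Hells and Cdc45, were all lower. Rfc4, a subunit of the clamp loader, had 6.75 ± 0.237 FPKM (SD, n = 3) in ECtrl and 4.99 ± 0.339 FPKM in EfCtrl, and Mcm7, a subunit of the replicative helicase, had 20.3 ± 0.0347 and 16.9 ± 1.41 FPKM. The 42 tested mitosis genes had a median of -0.059 and 0 with an unadjusted p under 0.05. In the Notch list, the median was -0.022 over 20 tested genes, and the targets Hey1 (8.17 ± 2.48 and 5.35 ± 0.242 FPKM) and Nrarp (53.2 ± 6.71 and 42.5 ± 1.62 FPKM) were lower with an unadjusted p under 0.05. Calcrl, the receptor for adrenomedullin in the lung capillary list, had 75.9 ± 6.98 and 58.2 ± 7.63 FPKM, and Bmp2 in the TGF-beta and BMP list had 3.88 ± 0.862 and 2.65 ± 0.260 FPKM. Rfc4, Mcm7, Hells, Cdc45, Hey1, Nrarp, Calcrl and Bmp2 were named after their values were seen, and 0 of them passed the adjusted test.

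Interferon-stimulated genes had a median of 0.20 over 41 tested members, 34 of them higher in EfCtrl and 3 of these with an unadjusted p under 0.05, which is 7.32% beside 3.63% of all genes. The spread of this list's median between replicates was larger, at 0.29 (SD). The medians were 0.038 for NF-kappaB and adhesion genes, 0.030 for hypoxia and glycolysis, -0.033 for the unfolded protein and integrated stress responses, 0.031 for NRF2 targets, 0.030 for cholesterol and fatty acid synthesis, -0.0049 for TGF-beta and BMP, 0.047 for coagulation and vasomotor genes, -0.0055 for p53 targets and 0.0045 for 2 genes of the mitochondrial genome. In the cholesterol and fatty acid synthesis list 1 gene was apart, the isopentenyl diphosphate isomerase Idi1, with 3.83 ± 0.892 FPKM (SD, n = 3) in ECtrl and 2.36 ± 0.0895 FPKM in EfCtrl.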

How the data were processed

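Libraries were made from selected mRNA. The authors used TopHat2 for alignment to mm10, Cufflinks for transcript models and FPKM, Cuffmerge to join the models and Cuffdiff to compare groups. The submitters' processing notes name Cufflinks 1.0.3. The deposited values used here are the FPKM of each library and, where named, the authors' group FPKM. The deposited fold changes, p-values and q-values of the authors' comparisons were not used. Groups and replicate numbers came from the sample labels. Symbols naming 1 locus were tested if the mean of either control group reached 2 FPKM, with limma 3.58.1 (R 4.3.3) on log2(FPKM + 1), default moderation and Benjamini-Hochberg adjustment over 10306 genes. The fit was tested on simulated data. A log2 difference on this scale understates the change of low genes. Each library is 1 isolation, so p-values measure the spread between isolations. Samples with the same replicate number are not from the same mice, and their deviations correlated at 0.123, 0.120 and -0.038, so no pairing was used. Locus starts were written 1-based, and annotation was GENCODE release M21 on the same build. The rule for naming genes covered the JNK genes and Cdh5, the genes apart with the smallest p (15 a direction) or the largest difference (5 a direction), list members that were apart, markers of other cell types, and genes tested within 2 Mb or apart within 10 Mb of Mapk8 or Mapk9. Not every gene that met the rule is named in the text, and Map2k4 and Slc25a37 were named outside it. The comparison, lists, windows and rule were chosen with earlier results of these data known. Alternatives covered the pseudocount, the filters, centring, all 9 libraries, a mean-variance trend, a replicate block, named symbols only, windows of 2 Mb and 20 Mb and the omission of each library. A filter on the mean of the 6 control libraries was added after seeing the data. Python 3.11.15, pandas 2.3.3 and numpy 2.4.6 were used for tables.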

Additional observations from a re-analysis of the deposited data

How the results depend on the processing

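At most 6 genes were called under any alternative. A pseudocount of 0.1 FPKM, centring of the libraries and a mean-variance trend each called 1 gene higher in EfCtrl and 0 lower, and leaving out 1 library called 1 to 6 higher and 0 to 1 lower. With the replicate number as a replicate block, 0 genes were called higher and 0 lower. The genes near Mapk8 with an unadjusted limma p under 0.05 numbered 7 in place of 10. Those among all 10306 genes numbered 388 in place of 374. The replicate block changed no call of a named gene. The 76 genes apart and higher and the 34 apart and lower became 115 and 60 with a pseudocount of 0.1 FPKM. They became 126 and 53 of 19655 genes tested with no filter. With a filter at a group mean of 5 FPKM, 41 of 8316 genes tested were apart and higher. With 1 library left out they ranged from 88 to 189 and from 57 to 123, since 2 libraries separate from 3 more easily. The counts near Mapk8 and Mapk9 under other fits were added after seeing the data. Near Mapk8 the 10 genes became 6 with a filter at a group mean of 5 FPKM and 19 with no filter. The genes tested near Mapk8 under these filters were not counted. Over all genes, 269 of 8316 had an unadjusted limma p under 0.05 with the 5 FPKM filter and 882 of 19655 with no filter. In a window of 2 Mb the count was 6 of 20 genes. With 1 library left out it was 6 to 12, beside 244 to 605 of all 10306 genes. Near Mapk9 the 5 genes became 11 with no filter and 1 with all 9 libraries in the fit. With all 9 libraries, 198 of all 10306 genes had such a p. In a window of 2 Mb the count near Mapk9 was 1 of 36 genes, and in a window of 20 Mb it was 11 of 232. With 1 library left out it was 2 to 9. The leukocyte median of 0.84 lay between 0.54 and 1.11 under the other settings and between 0.44 and 1.01 with 1 library left out, against a spread of 0.48 (SD) between libraries. Without ECtrl replicate 3, the locus SLC25A37 and mt-Tp passed the adjusted limma test, at log2 differences of 2.33 and 12.65. The cause of the other shifts was not tested. With a filter on the mean of all 6 libraries, added after seeing the data, 10146 genes were tested. Of these, 61 were apart and higher and 30 lower, and the leukocyte median was 0.77. FPKM gives no fragment counts, so the counting error behind a value is not known. The rough relative depths span 1 to 1.57, with ECtrl replicates 2 and 3 the shallowest.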
